A study of Mus musculus with 12 samples.

Results

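The comparison set all 6 arrays of splenocyte cultures that received purified SEMA3A protein against all 6 arrays of cultures that did not, so that it used the 12 arrays of the study, 12 of 12. The arrays were chosen by the treatment named in their labels and by no measured value. Mouse splenocytes, from DBA/2 animals of 10 weeks, were grown for 9 days with KLN-205KD cells, mouse lung tumour cells of squamous type whose own SEMA3A was knocked down. In the SEMA3A group the purified protein was added at 10 µg/mL. The SEMA6A+SEMA3A group had the same addition, with tumour cells that overexpressed SEMA6A. Neither addition was made in the control group, and the SEMA6A group had SEMA6A-overexpressing tumour cells without SEMA3A protein. Each of the 4 groups had 3 arrays. The SEMA3A knockdown of the tumour cells and interleukin-2, at 100 units/mL every 3 days, were common to all groups, so no culture had the tumour cells' normal SEMA3A. A single tumour line was used, and no label states if arrays of 1 group had their own cultures or mice. All p-values therefore measure the spread between these arrays, which may be technical.

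SEMA3A is a secreted semaphorin, a family of guidance proteins first known from growing axons. It binds neuropilin-1, and a plexin of the A class passes the signal into the cell, where small GTPases, collapsin response mediator proteins and actin regulators such as LIM kinase and cofilin act. In lymphocytes the same receptors are known for effects on migration, on contact with antigen-presenting cells and on proliferation. SEMA6A is a transmembrane semaphorin that binds class A plexins without needing a neuropilin. The question of the comparison was which splenocyte genes differed with added SEMA3A on average, whether or not the tumour cells carried SEMA6A.

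Signals were the deposited MAS5 intensities on a linear scale, with array medians of 42.5 to 53.5 and highest signals of 44046 to 53212. The number of arrays limits the precision. Differences are given on the log2(signal + 16) scale after quantile normalization, as SEMA3A minus no SEMA3A, and understate the change of dim genes. T cell genes gave high signals: Cd3d, of the T cell receptor complex, was at 18192 to 23139 with SEMA3A and 15896 to 22029.6 without, and Cd8b1 at 2497 to 3297 and 1482 to 3141. Cd4, at no more than 13.0 with SEMA3A and 10.7 without, was too dim for the filter. So were Sema3a, Sema6a, the receptor genes Nrp2 and Plxna2, and the squamous genes Krt14 and Trp63, whereas the epithelial genes Cdh1, at 1048 to 1736 with SEMA3A and 1084 to 1869 without, and Epcam were above the median on all arrays. SEMA6A replicate 2 stood apart: its 3'/5' ratio, a sign of RNA quality, was 1.22 by the Gapdh controls, against 0.767 to 0.818 on the other 11 arrays. The count of genes for the average is given with and without it.

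On average over both SEMA6A states, no gene passed the threshold for SEMA3A. By limma, with Benjamini-Hochberg adjustment at 0.05, 0 of 11325 tested genes passed (0%) and the lowest adjusted p was 0.651. At an unadjusted p under 0.05 there were 378 genes (3.34%), 223 higher with SEMA3A (1.97%) and 155 lower (1.37%), where chance gives 566. Of all tested genes 49.9% lay above 0, with a median difference of -0.00037 and a median size of 0.07. The median standard error was 0.11, and the 95% intervals extended by a median of 0.23 from the estimate. For 11067 genes (97.7%) the interval lay within 2-fold in both directions, and for 9691 (85.6%) within 1.5-fold. Only Fhl3 and Ces5a, which were higher, and Acta1, which was lower, had an average difference over 2-fold. Fhl3 and Acta1 passed the filter only through the side where they were high. Leaving out SEMA6A replicate 2 gave 581 genes at an unadjusted p under 0.05 and leaving out SEMA6A replicate 1 gave 762, with 0 genes past adjustment in both cases.

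**Figure D1:**
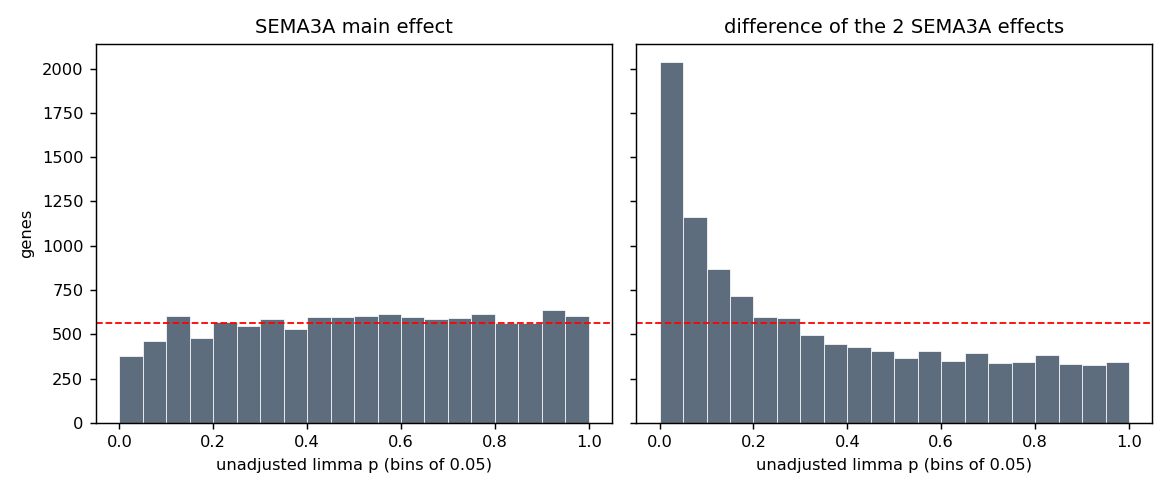
Unadjusted limma p-values of the 11325 tested genes in bins of 0.05, for the average SEMA3A effect (left) and for the difference between the SEMA3A effects with SEMA6A present and absent (right); the dashed line marks the 566 genes per bin that chance gives. The lowest bin holds 378 genes on the left, below the line, and 2037 on the right.

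The genes with the smallest p among those higher with SEMA3A began with a replication gene. Mcm6 encodes a subunit of the MCM helicase, which unwinds DNA at replication forks. Its signals were 11441, 12765 and 13476 on the SEMA3A arrays and 13411, 12132 and 13597 on the SEMA6A+SEMA3A arrays, against 8061, 8749 and 7617 on the control arrays and 8412, 10754 and 12597 on the SEMA6A arrays. The 3 SEMA3A arrays and the 3 SEMA6A+SEMA3A arrays lay above all control arrays, and they overlapped with the SEMA6A arrays, of which the highest reached 12597. The average difference was 0.46 ± 0.09 (SE; 95% interval 0.27 to 0.66; limma adjusted p = 0.65), at 0.61 where SEMA6A was absent and 0.32 where it was present. A separate probe set of Mcm6 gave 0.49 ± 0.13 (SE). The other helicase genes did not share it. Of the 9 tested members of the MCM list 3 lay above 0 and 6 below, with a median of -0.04. Mcm6 alone had an unadjusted p under 0.05, against 3.34% of all tested genes. Mcm3, also a helicase subunit, was at -0.09 ± 0.08 and Mcm5 at -0.06 ± 0.06 (SE).

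The promoters of Mcm6 and Mcm3 are shown because helicase genes are known targets of E2F factors and these had unlike values. RefSeq (GRCm38.p6) places the Mcm6 window at chr1:128359656-128359955 and the Mcm3 window at chr1:20820263-20820562, both on the minus strand. Each runs from 250 bases before the start of the gene to 50 after it, 5′ to 3′, with the E2F letters TTTGGCGC or, on the opposite strand, GCGCCAAA in capitals.
Mcm6: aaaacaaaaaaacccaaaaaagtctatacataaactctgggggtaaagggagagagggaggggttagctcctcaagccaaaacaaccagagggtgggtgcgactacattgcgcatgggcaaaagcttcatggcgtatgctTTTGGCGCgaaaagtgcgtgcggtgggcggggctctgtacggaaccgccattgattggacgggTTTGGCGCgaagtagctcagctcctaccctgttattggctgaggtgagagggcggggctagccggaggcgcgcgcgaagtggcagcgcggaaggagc
Mcm3: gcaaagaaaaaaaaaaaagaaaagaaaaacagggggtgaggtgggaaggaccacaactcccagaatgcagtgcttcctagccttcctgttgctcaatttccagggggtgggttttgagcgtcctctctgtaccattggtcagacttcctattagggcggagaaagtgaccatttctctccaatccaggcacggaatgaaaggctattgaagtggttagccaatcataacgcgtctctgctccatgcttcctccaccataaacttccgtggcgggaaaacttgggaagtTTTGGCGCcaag
The Mcm6 window held 2 matches and the Mcm3 window 1. Among the MCM list 4 of 9 windows held a match, against 0.514% of all 32851 promoter windows and 0.994% of those of tested genes. Among genes with an unadjusted p under 0.05 for the average, 1.33% of windows of those higher and 1.86% of those lower held a match. The letters were thus present in both genes, of which Mcm6 was above 0 and Mcm3 below.

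Rgs1 came next. It encodes a regulator of G protein signalling that restrains chemokine receptor responses in lymphocytes. Its signals were 2466, 2196 and 2321 on the SEMA3A arrays and 2631, 3035 and 2233 on the SEMA6A+SEMA3A arrays, against 1600.3, 1927 and 1799 on the control arrays and 1616, 2062 and 1855 on the SEMA6A arrays. Every array with SEMA3A lay above every array without it. The difference was 0.46 ± 0.09 (SE; 95% interval 0.27 to 0.65; limma adjusted p = 0.65), at 0.41 with SEMA6A absent and 0.51 with it present. Leaving out single arrays moved it between 0.40 and 0.52. Of the 12 tested genes of the list of RGS proteins and arrestins 9 lay above 0, with a median of 0.04. Rgs1 was the only member with an unadjusted p under 0.05, against 3.34% of all tested genes. Rgs3 was at -0.10 ± 0.14 and Gnai2, a G protein subunit, at -0.15 ± 0.15 (SE).

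Zfp825, a zinc finger gene, was at 295 to 416 (median 347) on the 6 arrays with SEMA3A and 200.1 to 302 (median 237) on the 6 without it. The difference was 0.50 ± 0.10 (SE; limma adjusted p = 0.65), and a separate probe set gave 0.36 ± 0.13. Klhl17, a kelch-like gene, was at 306 to 382 (median 352) on the 6 arrays with SEMA3A and 238 to 338 (median 259.6) on the 6 without it, with a difference of 0.34 ± 0.08 on average and of 0.34 in both SEMA6A states. Its other probe set gave 0.17. The largest difference in this direction was that of Fhl3, a LIM domain gene, at 1.03 ± 0.23, with signals of 54.1 to 142 (median 98.6) on the 6 arrays with SEMA3A and 24.6 to 52.3 (median 36.8) on the 6 without it. Every SEMA3A array exceeded every array without SEMA3A in deposited signal, by a narrow gap that closed on the normalized scale, and Fhl3 was dim, above the array median on only 7 of 12 arrays. Ces5a, a carboxylesterase gene, followed at 1.01 ± 0.25, with 199 to 748 (median 435) on the 6 arrays with SEMA3A and 150.3 to 291 (median 207) on the 6 without it, and these ranges overlapped. The co-chaperone gene Dnajb12 was at 0.44 ± 0.11, all of it from the cultures with SEMA6A (0.0041 without SEMA6A, 0.87 with it), and its other probe set gave 0.12. Cbx3, which encodes a heterochromatin protein, was at 0.48 ± 0.13, and the filamin-binding gene Rflna at 0.77 ± 0.20. Nacad, Prr27 and Nudt17, at 0.85, 0.76 and 0.70, were above the array median on only 4, 3 and 8 arrays. For Prr27 all 3 were arrays with SEMA3A, so it passed the filter only through the side where it was high. Its highest signal without SEMA3A was 36.3. Most arrays above the median for Fhl3, Rflna, Nacad and Nudt17 also had SEMA3A, and these genes too passed the filter only through that side. The probe sets of Zfp825, Ces5a, Rflna and Erdr1 are of a kind (suffix x_at) that can bind related transcripts. Klhl17, Fhl3 and the genes after them each had a limma adjusted p of 1.00.

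Among the genes lower with SEMA3A, Erdr1, the erythroid differentiation regulator gene, had the smallest p of all tested genes. Its signals were 338, 353 and 179 on the SEMA3A arrays and 139.97, 188 and 155 on the SEMA6A+SEMA3A arrays, against 525, 332 and 380.5 on the control arrays and 375, 395 and 355 on the SEMA6A arrays. All 3 SEMA6A+SEMA3A arrays and SEMA3A replicate 3 lay far below the other arrays, while SEMA3A replicates 1 and 2 lay within the range of the arrays without SEMA3A. The difference was -0.83 ± 0.15 (SE; 95% interval -1.15 to -0.50; limma adjusted p = 0.65), at -0.52 with SEMA6A absent and -1.13 with it present. The difference between these values had an unadjusted p of 0.0593 by limma (adjusted p = 0.29). Control replicate 1, at 525, was far above the other arrays without SEMA3A.

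Acta1, the skeletal muscle actin gene, had the largest difference of this direction, at -1.16 ± 0.26 (SE; limma adjusted p = 1.00), with signals of 9.92 to 71.9 (median 13.0) on the 6 arrays with SEMA3A and 47.9 to 114 (median 63.4) on the 6 without it. Its ranges overlapped, and it was above the array median on only 6 arrays. Most of these had no SEMA3A, so Acta1 passed the filter through the side where it was high. Tmem267, a transmembrane protein gene, was at 172 to 353 (median 213) on the 6 arrays with SEMA3A and 318 to 519 (median 395) on the 6 without it, a difference of -0.72 ± 0.16 (adjusted p = 1.00). Mfsd4b4, a transporter gene, was at -0.70 ± 0.17, and Zfp429, a zinc finger gene, at -0.41 ± 0.11. Rarres2, which encodes the chemoattractant chemerin, was at -0.90 ± 0.26 and above the array median on 3 arrays. Its other probe sets, too dim for the filter, gave 0.39 and 0.36. Fyttd1, an mRNA export gene, was at -0.33 ± 0.08, with every SEMA3A array below every other array, yet its other probe sets gave -0.10 to 0.34. The vesicle trafficking gene Mon1b likewise did not overlap, at -0.37 ± 0.11, against -0.05 by its other probe set. Mtdh, at -0.31 ± 0.09, had other probe sets at -0.09 to 0.07, and the ubiquitin ligase gene Ube3a, at -0.31 ± 0.09, at -0.11 to 0.16. Values of Fyttd1, Mon1b, Mtdh and Ube3a thus depended on the probe set. Ube2cbp, of the ubiquitin system, was at -0.41 ± 0.12 and Caap1, a gene of caspase regulation, at -0.25 ± 0.07.

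**Figure D2:**
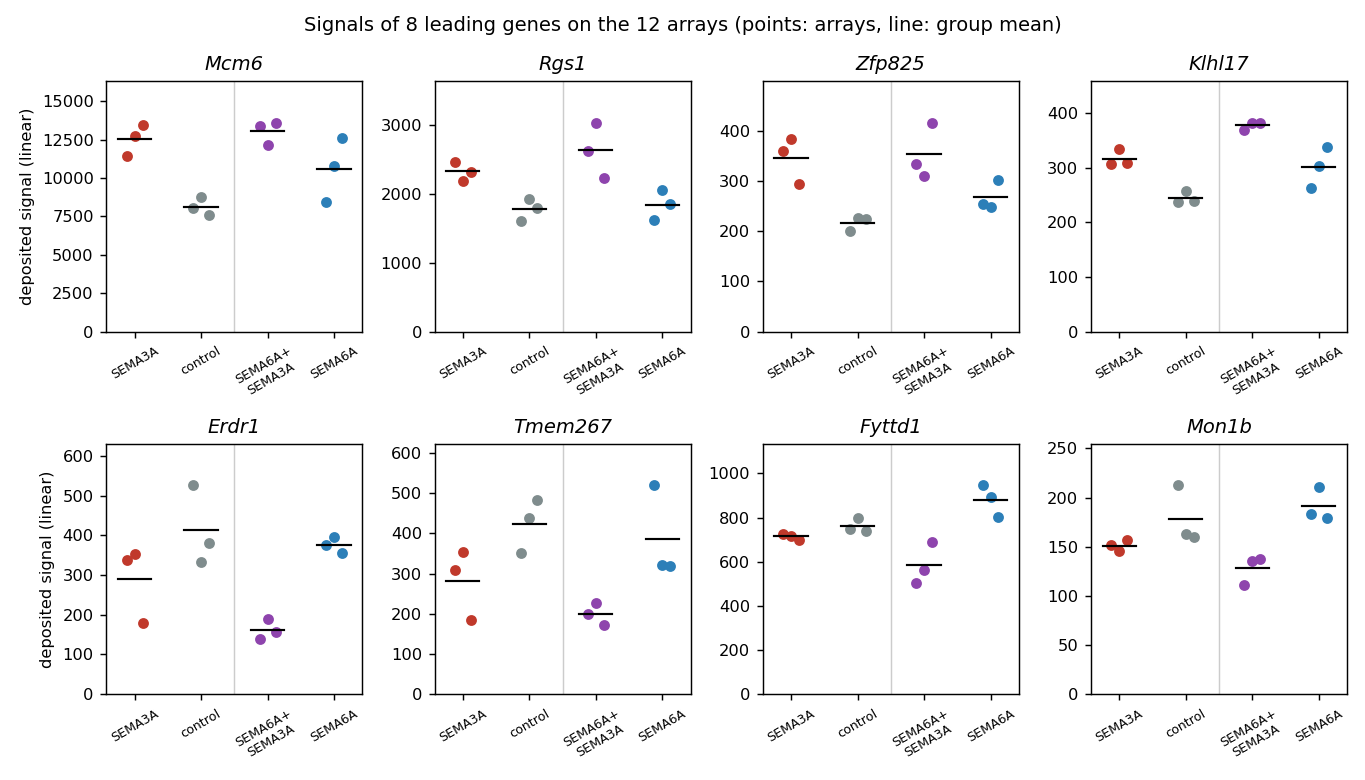
Deposited linear signal of Mcm6, Rgs1, Zfp825, Klhl17 (top) and Erdr1, Tmem267, Fyttd1, Mon1b (bottom) on the 12 arrays, each SEMA3A-treated group left of its own untreated partner; points are arrays and lines group means. Rgs1 separates the 6 SEMA3A arrays from the 6 others, at 2196 to 3035 against 1600 to 2062, while Erdr1 is low on 4 of the 6 SEMA3A arrays.

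Complete separation of the arrays was rare, and the number of genes that a random split of the arrays would separate was not computed. Separation of a gene named here is therefore not read as more than chance gives. On the normalized scale the 6 SEMA3A arrays did not overlap with the 6 others for 20 of 11325 genes (0.177%), 13 above (0.115%) and 7 below (0.0618%). Named genes among those above were Rgs1, Zfp825 and Rflna, the interleukin-1 family gene Il1f10, at 0.41 ± 0.14, the mitochondrial fatty acid oxidation gene Echs1, at 0.38 ± 0.20, Fdps of the mevalonate pathway, at 0.33 ± 0.13, Tpgs1, at 0.32 ± 0.09, and the methionine sulfoxide reductase gene Msrb2, at 0.31 ± 0.09 (SE). Without SEMA6A replicate 2 the difference of Echs1 was 0.14 and that of Fdps 0.17. That array was at 5311 for Fdps, while the other arrays without SEMA3A reached 10674 and the SEMA3A arrays began at 11194. Those below were Fyttd1, Mon1b, Ube2cbp, Caap1, Atxn7l2, at -0.28, Appbp2, at -0.19, and Zfp407, at -0.18. Other probe sets of Appbp2 that passed the filter gave -0.07 to 0.05, so its value also depended on the probe set. In deposited signal the ranges of Zfp825, Il1f10, Echs1 and Atxn7l2 overlapped.

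For most genes the average was made of values of opposite sign. Where SEMA6A was absent, 990 genes (8.74%) had an unadjusted p under 0.05 for SEMA3A against control, 552 higher (4.87%) and 438 lower (3.87%), and where it was present 1304 (11.5%) for SEMA6A+SEMA3A against SEMA6A, 590 higher (5.21%) and 714 lower (6.3%). By limma 0 passed adjustment in either, with lowest adjusted p of 0.551 and 0.257. The median size of a difference was 0.13 and 0.16, against 0.07 for the average, and 51 and 69 genes were over 2-fold, against 3 for the average. The effects, which share no array, had the same sign for 3855 genes (34.0%), and across genes, which are not independent replicates, they were related at a Pearson r of -0.43 and a Spearman rho of -0.43. Of the 208 genes with an unadjusted p under 0.05 in both, 193 had opposite signs, 133 of them higher with SEMA6A absent and lower with it present. Only 15 had the same sign, 11 higher and 4 lower.

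The difference between the effects was itself tested. At an unadjusted p under 0.05 it gave 2037 genes (18%), 886 with a more positive SEMA3A effect under SEMA6A (7.82%) and 1151 with a more negative one (10.2%). By limma 0 of these passed adjustment (lowest adjusted p = 0.197), but the count moved with the arrays: 1260 passed without SEMA6A replicate 1 and 258 without SEMA3A replicate 3, and the count was 0 without each of the 10 other arrays in turn. Among genes with an unadjusted p under 0.05 for the average, the smallest p of the difference were those of Slc5a5, the sodium and iodide symporter gene, at -0.39 with SEMA6A absent and 1.55 with it present, of Dnajb12, and of Gzf1, a zinc finger gene, at 0.59 and -0.14. Anp32b, a histone chaperone gene, was at -0.07 and 0.35, and Lypla1, an acyl-protein thioesterase gene, at -0.07 and 0.50. The chloride channel gene Clic4, at 0.09 and -0.42, and Wdr48, a deubiquitinase partner, at 0.11 and -0.91, had their average from the cultures with SEMA6A, and the late endosome gene Rab9, at 0.37 and -0.07, from those without (limma adjusted p = 0.20 for the difference in each).

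**Figure D3:**
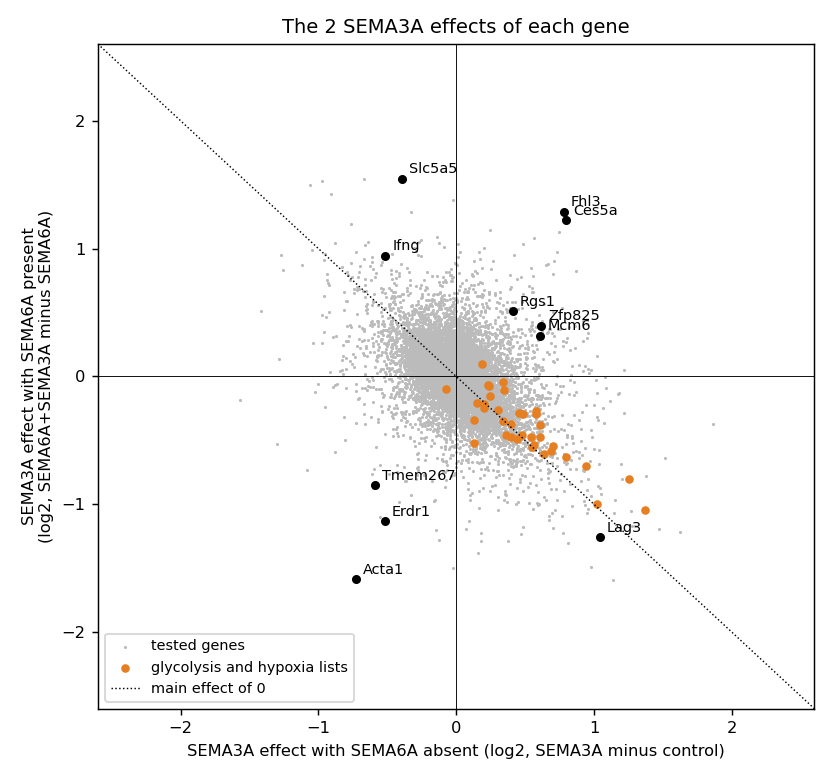
Each point is 1 of 11325 tested genes, by its SEMA3A effect with SEMA6A absent (horizontal, SEMA3A minus control) and present (vertical, SEMA6A+SEMA3A minus SEMA6A), both on the log2 scale; orange points are the glycolysis and hypoxia lists and the dotted line marks an average of 0. The cloud runs along the dotted line (r = -0.43), and Fhl3, Ces5a, Rgs1, Zfp825, Mcm6, Erdr1, Tmem267 and Acta1 lie off it.

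Glycolysis genes, which turn glucose into pyruvate and lactate, and hypoxia response genes, which are induced by low oxygen, had opposite signs by SEMA6A state and averages near 0. Of 22 glycolysis genes 18 were tested. With SEMA6A absent 18 of 18 lay above 0 (median 0.40), with it present 18 of 18 lay below 0 (median -0.29), and the average had 14 above and 4 below with a median of 0.05. At an unadjusted p under 0.05 the counts were 13, 11 and 1, read against 8.74%, 11.5% and 3.34% of all genes. Hypoxia response genes had 17 of 18 above 0 with SEMA6A absent (median 0.53), 17 of 18 below 0 with it present (median -0.46) and a median of 0.01 on average. The difference between the effects had an unadjusted p under 0.05 for 14 of 18 and 16 of 18 genes, all more negative under SEMA6A, against 10.2% of all genes.

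Pgam1, the phosphoglycerate mutase gene, was the glycolysis gene with an average at an unadjusted p under 0.05. Its signals were 15872, 15707 and 12612 on the SEMA3A arrays and 13476, 12012 and 12989.6 on the SEMA6A+SEMA3A arrays, against 10759.5, 11981 and 11607 on the control arrays and 12681, 12844 and 14296 on the SEMA6A arrays. The highest values stood on SEMA3A replicates 1 and 2, and the control arrays were lowest. Its average was 0.14 ± 0.07 (SE; limma adjusted p = 1.00), at 0.34 and -0.05 by SEMA6A state. Pkm, the pyruvate kinase gene, was at 0.09 ± 0.09 on average, 0.46 with SEMA6A absent and -0.28 with it present, and Hk2, a hexokinase gene, at 0.08 ± 0.08. Among hypoxia genes Fam162a was at 0.15 ± 0.09 on average, 0.58 and -0.27 by SEMA6A state. Vegfa, the angiogenic growth factor gene, was at 0.14 ± 0.11 and the carbonic anhydrase gene Car9 at -0.19 ± 0.15 (SE; limma adjusted p = 1.00 for each).

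Promoters of Pgam1 and Fam162a are printed since members of these lists had like values, and many hypoxia genes are known to be bound by HIF at the letters ACGTG or, on the opposite strand, as CACGT, in capitals here. The windows are chr19:41911621-41911920 on the plus strand and chr16:36071512-36071811 on the minus strand (RefSeq, GRCm38.p6), 5′ to 3′.
Pgam1: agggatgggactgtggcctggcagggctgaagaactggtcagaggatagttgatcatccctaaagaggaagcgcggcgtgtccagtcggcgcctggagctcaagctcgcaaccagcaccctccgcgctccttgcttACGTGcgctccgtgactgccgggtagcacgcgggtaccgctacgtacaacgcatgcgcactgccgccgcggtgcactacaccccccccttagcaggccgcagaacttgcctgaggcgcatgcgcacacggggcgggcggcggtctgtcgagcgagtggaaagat
Fam162a: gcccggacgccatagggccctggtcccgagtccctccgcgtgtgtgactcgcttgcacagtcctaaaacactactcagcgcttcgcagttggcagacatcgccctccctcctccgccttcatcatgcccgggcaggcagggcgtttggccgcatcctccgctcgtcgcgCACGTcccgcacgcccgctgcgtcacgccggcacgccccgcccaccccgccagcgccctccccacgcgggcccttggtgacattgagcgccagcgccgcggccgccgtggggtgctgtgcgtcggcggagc
Each held 1 match. The core was in 15 of 28 windows of the glycolysis list and 16 of 22 of the hypoxia list, against 19.6% of all windows and 25.7% of those of tested genes. Among genes with an unadjusted p under 0.05 for the average, it was in 21.2% of windows of those higher and 29.8% of those lower. So short a run of letters also occurs in many promoters outside these lists.

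The arrays within a group were unlike in these lists. The mean centred log2 level of the glycolysis list was 0.41, 0.27 and -0.10 on SEMA3A replicates 1 to 3 and -0.11, -0.19 and -0.13 on the SEMA6A+SEMA3A arrays, against -0.31, -0.21 and -0.23 on the control arrays and -0.14, 0.47 and 0.26 on the SEMA6A arrays. High levels were thus found on SEMA3A replicates 1 and 2 and SEMA6A replicates 2 and 3, and the remaining array of both groups was near the rest. The hypoxia list had the same 4 arrays high, at 0.46 and 0.32 with SEMA3A and 0.53 and 0.33 with SEMA6A, and no other array above 0. Squamous carcinoma markers, whose genes mark epithelial cells, were high on the same arrays, at 0.16 and 0.34 and at 0.49 and 0.33, and below 0 on the other 8. Both tested neutrophil markers, Ltf, of lactoferrin, and Il1r2, the IL-1 decoy receptor gene, were high there too, at a mean of 0.57 and 1.25 with SEMA3A and 1.32 and 1.04 with SEMA6A, and at -0.20 or lower on the other 8. Their SEMA3A effect had a median of 1.05 with SEMA6A absent, -1.07 with it present and -0.01 on average. The part of these markers in the result was not tested.

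**Figure D4:**
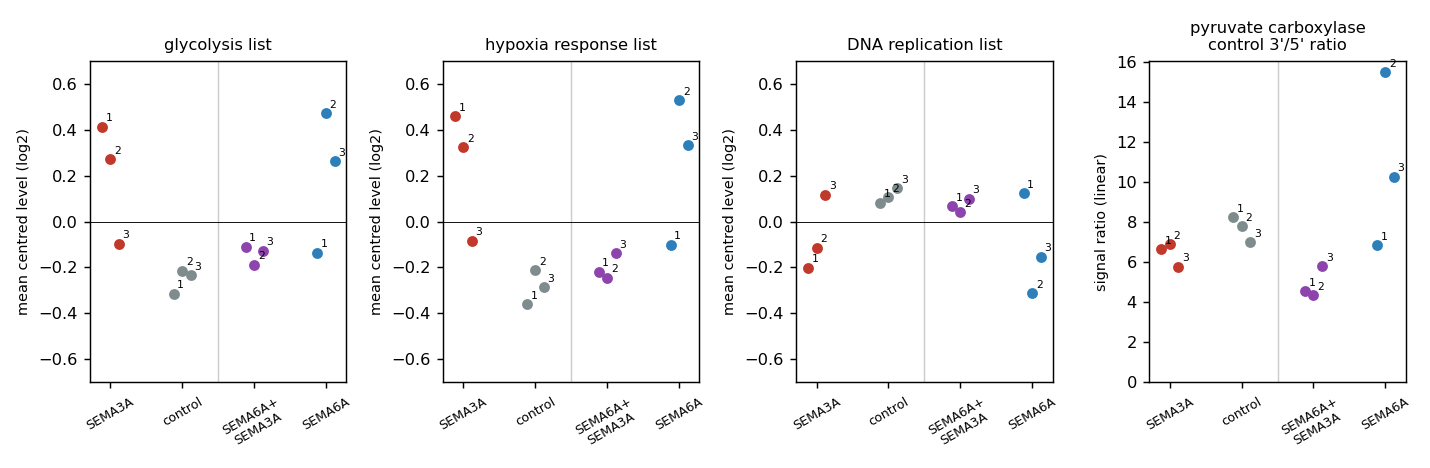
Mean centred log2 level of the tested members of the glycolysis, hypoxia response and DNA replication lists on each array, and the linear 3'/5' signal ratio of the pyruvate carboxylase control probe sets; small numbers are replicate numbers. SEMA3A replicates 1 and 2 and SEMA6A replicates 2 and 3 are high in the first and second panels and low in the third, and in the fourth the SEMA6A+SEMA3A arrays lie at 4.36 to 5.81.

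Replication genes had the opposite signs, again with averages near 0. Of 35 tested genes of DNA replication and nucleotide synthesis 30 lay below 0 with SEMA6A absent (median -0.19), 29 lay above 0 with it present (median 0.20), and the average had a median of -0.01 with 13 above and 22 below. Signs were opposite for 34 of 35. Fen1, the flap endonuclease gene, was at -0.19 ± 0.09 on average, -0.48 and 0.11 by SEMA6A state. It alone of the 35 genes had an unadjusted p under 0.05, against 3.34% of all tested genes. Pcna, the sliding clamp gene, was at 0.09 ± 0.05. Rfc3, a clamp loader gene, was at 0.37 ± 0.23, where SEMA6A replicate 2 had a signal of 758 against 1971 or more on the other arrays. The MCM genes had 8 of 9 below 0 with SEMA6A absent and 9 of 9 above 0 with it present, and Mcm6 was the exception in the first. Of the G1 cyclins and CDK inhibitors 8 of 21 lay above 0 (median -0.03). Ccnd1, the cyclin D1 gene, was at 0.33 ± 0.15 (SE), with 70.2 to 134 (median 109) on the 6 arrays with SEMA3A and 64.2 to 107 (median 74.6) on the 6 without it, E2f2 at -0.16 ± 0.08 and Cdkn2c, an inhibitor of CDK4 and CDK6, at 0.14 ± 0.10. Mki67, the proliferation marker gene, was at -0.07 ± 0.06, with a 95% interval of -0.19 to 0.06. Limma adjusted p was 1.00 for each of these genes but Mcm6.

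Receptors of SEMA3A gave values near 0 or below. Of 8 genes 6 were tested, 1 above 0 and 5 below, with a median of -0.18 and none at an unadjusted p under 0.05. Nrp1, the neuropilin that binds SEMA3A, was at 64.6, 40.9 and 109 on the SEMA3A arrays and 79.6, 133 and 83.6 on the SEMA6A+SEMA3A arrays, against 89.0, 103 and 82.4 on the control arrays and 129, 73.3 and 82.7 on the SEMA6A arrays. These values overlapped in all groups, with an average difference of -0.18 ± 0.22 (SE; 95% interval -0.65 to 0.29). Other probe sets of Nrp1 that passed the filter gave -0.28, -0.02 and 0.01. The signalling plexin Plxna1 was at -0.18 ± 0.18, -0.50 with SEMA6A absent and 0.15 with it present, Plxna3 at -0.10 ± 0.16, Plxna4 at -0.26 ± 0.33 and L1cam, a coreceptor in neurons, at -0.21 ± 0.23. The list was low on SEMA3A replicates 1 and 2, at a mean centred level of -0.33 and -0.43, and at 0.08 on replicate 3. Downstream, 14 of 28 tested genes of plexin signalling and the cytoskeleton lay above 0 (median 0.0012). Fes, a tyrosine kinase gene, was at -0.29 ± 0.14, the actin linker gene Rdx at -0.09 ± 0.05 and the kinase gene Pak2 at 0.11 ± 0.07 (SE), and none had an unadjusted p under 0.05. Among 15 other semaphorins and plexins of immune cells 8 lay above 0 (median 0.03). Plxnb3, a class B plexin gene, was at 0.59 ± 0.21, with 53.4 to 165 (median 103) on the 6 arrays with SEMA3A and 41.8 to 91.4 (median 53.4) on the 6 without it, the secreted semaphorin Sema3f at -0.65 ± 0.36 and Cd72, a SEMA4D receptor, at 0.14 ± 0.09. Limma adjusted p was 1.00 for each.

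T cell cytokine genes also had opposite signs by SEMA6A state. Of 9 tested, 8 lay below 0 with SEMA6A absent (median -0.29) and 7 above 0 with it present (median 0.36), and the average had 7 above and a median of 0.08. Ifng, the interferon-gamma gene, had signals of 302, 332 and 534 on the SEMA3A arrays and 677, 662 and 588 on the SEMA6A+SEMA3A arrays, against 538, 541 and 543 on the control arrays and 444, 326 and 248 on the SEMA6A arrays. SEMA3A replicate 3 lay just below the control arrays, the SEMA6A+SEMA3A arrays were highest and SEMA6A replicate 3 was lowest. Its average was 0.21 ± 0.16 (SE; limma adjusted p = 1.00; 95% interval -0.13 to 0.56), made of -0.52 and 0.95, and the difference between these had a limma adjusted p of 0.20. Csf2, which encodes GM-CSF, was at -0.98 and 1.53, averaging 0.28 ± 0.40, and Il24, a cytokine of the IL-10 family, at -0.64 and 1.05, averaging 0.21 ± 0.22 (SE). On SEMA3A replicate 3 Csf2 had a signal of 1134, above every control array (712 to 916), against 193 and 298 on replicates 1 and 2. The mean centred level of the cytokine list was -0.46, -0.30 and 0.27 on the SEMA3A arrays and 0.07, -0.54 and -0.37 on the SEMA6A arrays, and above 0 on the 6 others. The 4 arrays that were high in glycolysis and hypoxia genes, SEMA3A replicates 1 and 2 and SEMA6A replicates 2 and 3, were thus the ones low in cytokine genes.

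Inhibitory receptors and their ligands had 7 of 15 genes above 0 on average (median -0.00074), 12 above 0 with SEMA6A absent (median 0.33) and 8 below 0 with it present (median -0.19). Pdcd1, which encodes PD-1, was at 787, 566 and 227 on the SEMA3A arrays and 369, 272 and 338 on the SEMA6A+SEMA3A arrays, against 238, 348 and 261 on the control arrays and 439, 816 and 659 on the SEMA6A arrays. SEMA3A replicates 1 and 2 and the SEMA6A arrays held the high values, and the average was -0.08 ± 0.24 (SE), made of 0.72 and -0.88. The checkpoint genes Lag3, at 1.04 and -1.26, and Ctla4, at 1.03 and -0.86, averaged -0.11 ± 0.31 and 0.08 ± 0.29. Their 95% intervals, -0.77 to 0.55 and -0.54 to 0.71, were wide. The ligand genes Cd274, of PD-L1, at -0.13 ± 0.09, Pdcd1lg2, of PD-L2, at 0.20 ± 0.12, and Lgals9, of galectin-9, at 0.18 ± 0.16, had limma adjusted p of 1.00.

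Of 17 tested granule genes of cytotoxic cells 10 lay above 0 on average (median 0.01), with none at an unadjusted p under 0.05. The medians by SEMA6A state were 0.03 and -0.02, but 13 of 17 genes had opposite signs, and the difference between the effects had an unadjusted p under 0.05 for 6, against 18% of all genes. Gzmb, the granzyme B gene, was at 38556 to 50605 (median 44439) on the 6 arrays with SEMA3A and 38065 to 47885 (median 44984) on the 6 without it, an average of -0.03 ± 0.04 (95% interval -0.12 to 0.06), which was 0.02 with no further normalization. Prf1, the perforin gene, was at -0.11 ± 0.11, Nkg7, of granule release, at 0.05 ± 0.04, Gzmm at 0.22 ± 0.13 and Gzmf at 0.19 ± 0.18 (SE), the last made of -0.44 and 0.82 by SEMA6A state. T cell receptor genes had 10 of 15 above 0 (median 0.05), among them the adaptor Lat, at 0.17 ± 0.08, and the zeta chain gene Cd247, at 0.16 ± 0.09, while Thy1 was at -0.10 ± 0.07 and Cd8a at -0.06 ± 0.22. Other probe sets of Cd8a gave -0.20 to 0.32. Immediate early genes of T cell activation had 15 of 22 below 0 (median -0.07). At an unadjusted p under 0.05 there were 2 lower, the ERK phosphatase gene Dusp5, at -0.21 ± 0.08, and the transcription factor gene Egr1, at -0.15 ± 0.06, and 1 higher, Egr2, at 0.36 ± 0.16, among 22 genes, where 1.37% of all tested genes were lower and 1.97% higher at that threshold. NK receptor genes had 6 of 10 above 0 (median 0.13), with Fcer1g, an Fc receptor adaptor, at 0.13 ± 0.05, the activating receptor gene Ncr1 at 0.44 ± 0.21 and Slamf7 at 0.22 ± 0.13 (SE; limma adjusted p = 1.00 for each gene).

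MHC class II genes, which present antigen, had 6 of 7 tested members above 0 and a median of 0.14. The medians by SEMA6A state, 0.21 and 0.16, had 1 sign, yet 3 of the 7 genes had opposite signs. The mean centred level of the list overlapped, at -0.19 to 0.20 with SEMA3A and -0.37 to 0.30 without it. Cd74, the invariant chain gene, was at 145, 194 and 127 on the SEMA3A arrays and 179, 169 and 174 on the SEMA6A+SEMA3A arrays, against 136, 119 and 121 on the control arrays and 153, 132 and 153 on the SEMA6A arrays. The SEMA3A arrays overlapped with the others, and the average was 0.24 ± 0.11 (SE; limma adjusted p = 1.00). H2-Ab1 was at 0.10 ± 0.10, and H2-Oa, an editor of peptide loading, at -0.16 ± 0.16. Type I interferon response genes had 10 of 20 above 0 (median 0.01), with Stat2 at 0.44 ± 0.29, Ifit3 at 0.39 ± 0.21 and the tetherin gene Bst2 at 0.16 ± 0.12. Cholesterol and fatty acid synthesis had 9 of 22 above 0 (median -0.03). Besides Fdps, its isoprenoid enzyme Idi1 was at -0.15 ± 0.09 and the desaturase gene Scd2 at -0.07 ± 0.06 (SE). Limma adjusted p was 1.00 for each.

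Across the 18 lists described, the medians of the average ran from -0.18 to 0.14, while the medians by SEMA6A state reached 0.53 and -0.46.

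**Figure D5:**
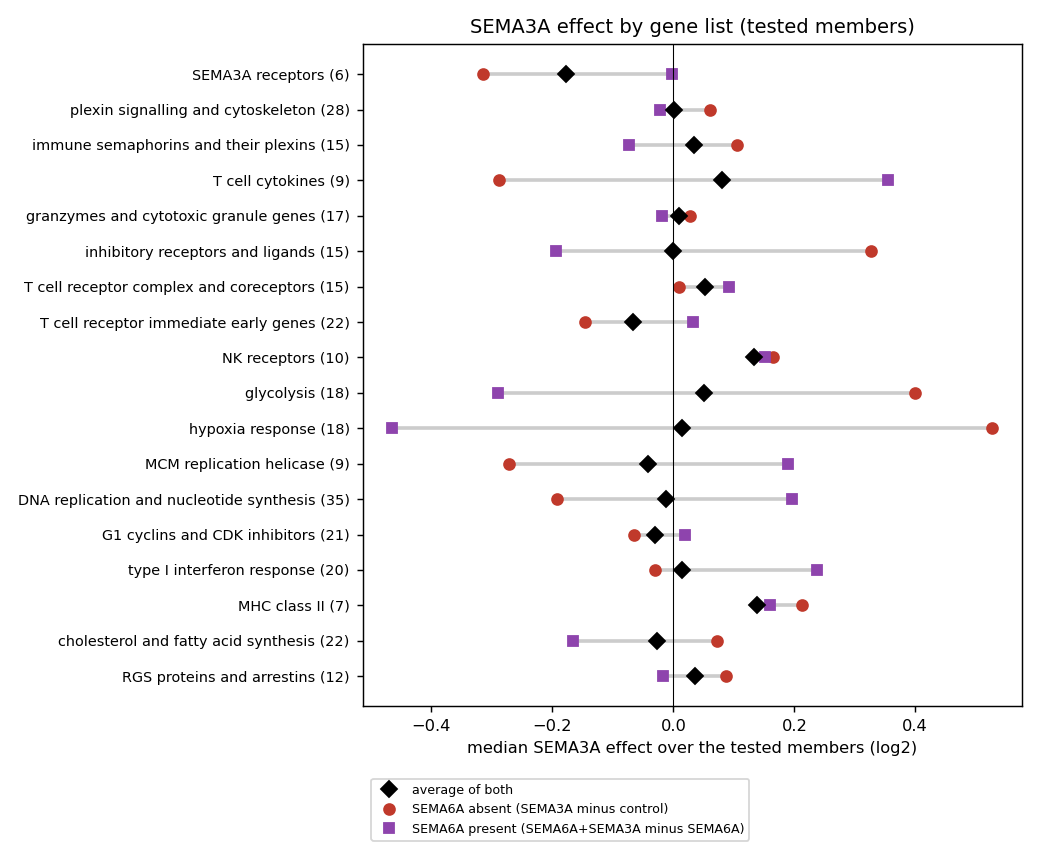
Median SEMA3A effect (log2) over the tested members of 18 gene lists, whose number stands in brackets: circles with SEMA6A absent, squares with SEMA6A present, diamonds for the average. Glycolysis and hypoxia response have circles at 0.40 and 0.53 and squares at -0.29 and -0.46, with diamonds near 0.

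The pyruvate carboxylase ratio is described without its p-value, since it was chosen after an earlier look at these arrays had shown its difference. The 3'/5' signal ratio of the pyruvate carboxylase control probe sets was 4.36 to 6.90 (median 5.79) with SEMA3A and 6.86 to 15.5 (median 8.03) without it, a log2 difference of -0.67. Within each SEMA6A state the arrays with and without SEMA3A did not overlap, and the pooled ranges overlapped by 1 array on each side. The signal of the 5′ probe set was 106 to 132 with SEMA3A and 66.5 to 92.7 without it, with no overlap, while that of the 3′ probe set was 490.1 to 781 and 587 to 1032. Without SEMA6A replicate 2 the log2 difference of the ratio was -0.52. Of the other measures none passed a 2-sided exact permutation test within SEMA6A state, of which the smallest p possible is 0.005. Their lowest p was 0.225 after adjustment over all 5 measures, the pyruvate carboxylase ratio included. The transferrin receptor ratio was 5.93 to 18.1 (median 14.7) with SEMA3A and 6.82 to 35.7 (median 8.87) without it (exact permutation p = 0.96), the Gapdh ratio 0.767 to 0.796 (median 0.781) with SEMA3A and 0.775 to 1.22 (median 0.798) without it (p = 0.135), the Actb ratio 1.02 to 1.12 (median 1.05) with SEMA3A and 0.993 to 1.23 (median 1.06) without it (p = 0.67) and the median signal 44.1 to 53.5 (median 49.5) with SEMA3A and 42.5 to 49.2 (median 45.3) without it (p = 0.1). The part of RNA quality in the gene values above was not tested.

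Summed signals of markers of other cell types that the cultures could hold overlapped between the arrays with and without SEMA3A. In such bulk RNA, fewer cells of a type and less RNA per cell cannot be told apart. Squamous carcinoma markers had 16 of 24 genes tested, with a summed signal of 3235 to 4262 with SEMA3A and 3319 to 5255 without, and 8 of them, Cdh1, Epcam, Egfr, Dsg2, Lamb3, Perp, Dsp and Krt6a, were above the array median on all 12 arrays, while Krt14 and Trp63 were on none. Macrophage and monocyte markers had 8 of 22 genes tested, with a summed signal of 1582 to 2779 with SEMA3A and 1298 to 2434 without, and 5 of them, Csf1r, Cd14, Cd68, Fcgr2b and Fcgr3, were above the median on all 12 arrays, while Adgre1 was on 1. Neutrophil markers had 2 of 14 genes tested, with a summed signal of 249.99 to 811 with SEMA3A and 234 to 796 without, and S100a8 and S100a9 were above the median on none. Mast cell and basophil markers had 6 of 16 genes tested, with a summed signal of 2914 to 5855 with SEMA3A and 2797 to 4459 without. The brightest was Mcpt8, at 1915 to 4108 (median 2205) with SEMA3A and 1817 to 2958 (median 2240) without. Mcpt8, Kit and Cpa3 were above the median on all 12 arrays, while 8 members, Fcer1a, Ms4a2 and Hdc among them, were on none. B cell markers had 4 of 13 genes tested, with a summed signal of 483 to 1123 with SEMA3A and 484 to 1170.3 without. Dendritic cell markers had 5 of 11 genes tested, with a summed signal of 579 to 871 with SEMA3A and 458 to 853 without. Of these 5, 4 lay above 0 on average (median 0.20), and 1 had an unadjusted p under 0.05 by limma, against 3.34% of all genes. Their medians were 0.42 with SEMA6A absent and 0.80 with it present, yet 4 of the 5 had opposite signs by SEMA6A state. Fibroblast markers had 3 of 11 genes tested, one of them Thy1, which T cells also express. Without Thy1 their summed signal was 206 to 362 with SEMA3A and 185 to 234 without, and Col1a1 was above the median on no array. Erythroid markers had 1 of 10 genes tested, with a summed signal of 81.4 to 192 with SEMA3A and 84.9 to 202 without. In the average all 6 tested mast cell and basophil genes lay above 0 (median 0.13), and 6 of 8 macrophage and monocyte genes did (median 0.10). None had an unadjusted p under 0.05 in either list. The mast cell and basophil median was 0.34 with SEMA6A absent and -0.10 with it present, where 4 of 6 genes lay below 0. Macrophage and monocyte genes had medians of 0.26 and 0.0028. SEMA3A replicate 1 had the highest mean centred level of both lists, at 0.50 and 0.36.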

How the data were processed

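RNA of splenocytes was measured on 12 single-colour Affymetrix arrays, 3 for each of 4 groups, with 6 µg of RNA each (labels' protocols). The submitters' processing notes name MAS5, with no version in the sources used here, as the maker of the deposited intensity of each probe set. The mean of each array trimmed by 2% at each end was 500, so the authors' values had been scaled by array. Detection calls and scanner files were not used here.

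Of 45101 probe sets, 64 were controls, 34945 named 1 gene, 932 several and 9160 none. Gene identifiers of 34754 were matched to the RefSeq table of GRCm38.p6. Signals were taken as log2(signal + 16) and, since array medians differed by a factor of 1.26, quantile normalized. Probe sets above their array's median on at least 3 arrays were kept, and of several for a gene that with the highest mean stood for it, leaving 11325 of 18193 genes.

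Limma 3.58.1 in R 4.3.3 fitted 1 mean per group over all arrays, with a trended prior (8 residual and 5.14 prior degrees of freedom). The SEMA3A effect was the mean of SEMA3A minus control and SEMA6A+SEMA3A minus SEMA6A, and the difference of these was tested too. P-values were adjusted by Benjamini-Hochberg over all tested genes. All 5 array measures were compared by exact permutation within SEMA6A state and adjusted together, and the pyruvate carboxylase ratio is described without its p-value. Genes named were the 12 per direction with the smallest p, up to 8 per direction without overlap between arrays, 3 per list described, a panel of semaphorin and T cell genes, and 4 per direction with the smallest p of the difference, leaving out clones, predicted genes and receptor segments. Genes of the panel that failed the filter are named without a difference. Gene lists, 44 in all, are described by counts and medians only, with no list test. Members, lists and measures were chosen with earlier results of these data known. The fit was also run on simulated data whose arrays varied independently, unlike the arrays here, of which 4 shared high or low list levels. That run therefore says nothing on how the fit handles such shared levels. Promoters were searched with Python 3.11.15.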

Additional observations from a re-analysis of the deposited data

Results flagged for a closer look

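Values of 6 arrays were looked at together, with or without SEMA3A, for 58 groups of values, and 6 held an array whose gap to its nearest neighbour exceeded Dixon's 95% critical value; chance gives about 1 in 20. SEMA6A+SEMA3A replicate 2 was apart among the arrays with SEMA3A in the Actb 3'/5' ratio, at 1.12 against 1.05 at most on the others, and in Rarres2, at a signal of 57.3 against 21.9 at most. Among the arrays without SEMA3A, SEMA6A replicate 2 was apart in the Gapdh ratio, at 1.22 against 0.818 at most, and in the Actb ratio, at 1.23 against 1.07 at most. Control replicate 1 had an Erdr1 signal of 525, against 395 at most on the other arrays without SEMA3A, and control replicate 3 an Rflna signal of 12.5, against 39.1 or more.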

How the results depend on the processing

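The count of 0 genes past adjustment for the average SEMA3A effect held under every alternative run by limma: signals as deposited, a pseudocount of 1 or 64, a filter at the 75th percentile or none, the most variable probe set by interquartile range, every probe set, no prior trend, array weights gene by gene, a replicate block, an additive model, no SEMA6A term and leaving out each array. The 378 genes at an unadjusted p under 0.05 became 767 with no filter, 211 at the 75th percentile, 887 over every probe set, 665 with array weights, 990 and 1304 within SEMA6A absent and present, and 290 to 762 without single arrays. For the difference of the effects, 1580 genes passed adjustment with array weights and 0 to 1260 without single arrays, and an unadjusted p under 0.05 was found for 3256 over every probe set, 3522 with array weights and 1304 to 3392 without single arrays (SEMA3A replicate 1 for the lowest, SEMA6A replicate 1 for the highest); the cause was not tested. With the replicate number as a block, 0 genes passed for the average (326 at an unadjusted p under 0.05) and 0 for the difference (1764). The numbers were not taken as pairs: 1 of 18 same-number pairs had a correlation of deviations over 0.1 (range -0.36 to 0.14), and 0 arrays correlated best with their own number.

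Of the 99 named genes, 0 of 2539 values under alternatives passed adjustment. Averages turned sign as follows. With SEMA6A absent, Ifng at -0.52, Il24 at -0.64, Csf2 at -0.98, Gzmf at -0.44, Pdcd1lg2 at -0.12, Egr2 at -0.038, Car9 at 0.13, Rfc3 at -0.047, Pcna at -0.020, Bst2 at -0.0027, H2-Oa at 0.21, Scd2 at 0.077, Gnai2 at 0.081, Rgs3 at 0.18, Gzmb at 0.056, Prf1 at 0.15, Pdcd1 at 0.72, Lag3 at 1.04, Mki67 at 0.080, Slc5a5 at -0.39, Anp32b at -0.067, Lypla1 at -0.075, Clic4 at 0.092 and Wdr48 at 0.11. With SEMA6A present, Plxna1 at 0.15, Nrp1 at 0.057, Cd274 at 0.058, Slamf7 at -0.12, Pgam1 at -0.047, Hk2 at -0.064, Pkm at -0.28, Fam162a at -0.27, Mcm3 at 0.14, Mcm5 at 0.0091, Fen1 at 0.11, Ctla4 at -0.86, Cd8a at 0.18, Gzf1 at -0.14 and Rab9 at -0.074. With the most variable probe set, Fyttd1 at 0.34, Appbp2 at 0.054, Mcm3 at 0.069, Fen1 at 0.017, Idi1 at 0.11, Scd2 at 0.043, Prf1 at 0.027 and Lypla1 at -0.071. With array weights Pdcd1 was at 0.045, and with no further normalization Gzmb was at 0.022. Without single arrays the ranges were Csf2 from -0.093 to 0.54, Lgals9 from -0.0081 to 0.28, Gnai2 from -0.25 to 0.018, Rgs3 from -0.21 to 0.0083, Plxna3 from -0.16 to 0.012, Plxna4 from -0.43 to 0.079, Pdcd1 from -0.26 to 0.16, Lag3 from -0.35 to 0.14, Ctla4 from -0.17 to 0.33 and Cd8a from -0.24 to 0.093. The pyruvate carboxylase difference, -0.67, ran from -0.817 to -0.523 on the log2 scale without single arrays, the Gapdh ratio from -0.181 to -0.0182, the Actb ratio from -0.0460 to 0.0133, the transferrin receptor ratio from -0.255 to 0.267 and the median signal from 0.0608 to 0.118. Signals near the array median limit Nacad, Prr27, Rarres2 and Ifit3, which were above it on 3 to 5 of 12 arrays.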

Other observations

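Lists not described so far had averages near 0 as well. Genes of the unfolded protein and amino acid stress response had 8 of 20 tested members above 0 (median -0.03), with 15 of 20 above 0 where SEMA6A was absent (median 0.09) and 15 of 20 below 0 where it was present (median -0.19). NADPH and antioxidant enzymes had 11 of 19 above 0 (median 0.01; 0.15 and -0.09 by SEMA6A state). The BCL2 family of cell death regulators had 10 of 14 below 0 (median -0.06; 0.09 and -0.14), and lineage and memory transcription factors 10 of 14 (median -0.04; 0.05 and -0.17). Homing and memory surface genes had 5 of 12 above 0 (median -0.0017; 0.22 and -0.11). Chemokine genes had 7 tested members, 4 below 0 on average (median -0.13), 7 of 7 below 0 with SEMA6A absent (median -0.37) and 4 above 0 with it present (median 0.32). Receptors of the IL-1 family had 4 of 7 above 0 (median 0.04; 0.11 and -0.27). Oxidative phosphorylation, with 14 of 26 above 0 (median 0.02; 0.04 and -0.02), and ribosomal proteins, with 11 of 17 (median 0.02; 0.0044 and 0.02), stayed near 0 in both SEMA6A states. All genes together had 51.7% above 0 with SEMA6A absent (median 0.01) and 49.8% with it present (median -0.0014). Limma found 0 genes past adjustment in these lists, and unadjusted p under 0.05 on average in 2 of their 136 tested members, against 3.34% of all genes.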
